A study of Arabidopsis thaliana with 6 samples.

Results

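Arabinogalactan proteins (AGPs) and fasciclin-like arabinogalactan proteins (FLAs) are cell wall and cell surface glycoproteins of *Arabidopsis thaliana*, and 48 of their genes were followed here among the 33602 loci of the deposited count table. The members were 21 FLA genes and 27 other AGP genes, taken from a list of locus codes, and that list was drawn up with the fold changes of this comparison already known. Its values in the comparison are therefore a description, and the tests below, taken from a fit over all genes, say which single genes passed and are no evidence that the family is special. The libraries came from the base of inflorescence stems, labelled *smxl4 smxl5* in 3 libraries (called mutant-labelled below) and wild type in the other 3. *SMXL4* and *SMXL5* are a pair of genes known to promote phloem formation. All shoots, of either genotype, had been grafted as seedlings onto wild-type roots and were grown in short days and then in long days of 16 h light. Each library pooled 3 stem fragments of 1 cm from plants 15 to 20 cm tall. The alleles are not described in the labels.

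The protein backbone of an AGP is rich in proline, alanine, serine and threonine. Prolines are hydroxylated in the secretory pathway, and the hydroxyprolines carry large galactose- and arabinose-rich glycans. Many AGPs are held at the plasma membrane by a glycosylphosphatidylinositol (GPI) lipid anchor. FLAs carry, beside AGP-like stretches, fasciclin domains, folds known from animal cell adhesion proteins. In stems, *FLA11* and *FLA12* are known from cells that form secondary walls, such as xylem vessels and fibres, and their loss alters stem stiffness and cellulose. Classical AGPs are mostly the AGP backbone itself, lysine-rich AGPs have a short basic stretch, AG peptides have very short mature chains, and chimeric AGPs join an AGP region to another domain.

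Library totals lay between 21364628 and 36133200 counts in the mutant-labelled libraries and between 33749559 and 49929595 in wild type. *SMXL4* reached 13.4, 15.3 and 11.2 CPM (counts scaled to library size) in the mutant-labelled libraries and 12.1, 10.2 and 11.1 CPM in wild type. *SMXL5* reached 116, 116 and 82.0 CPM in the mutant-labelled libraries and 112, 97.5 and 99.4 CPM in wild type. Neither passed the test (edgeR adjusted p = 0.179 and 0.920), so the counts do not check the genotype labels, and directions below are those of the mutant-labelled libraries. At an edgeR adjusted p of 0.05, 13.7% of all tested genes fell. Of the stem tissue markers followed, 0 of 6 epidermis and 0 of 3 primary wall cellulose genes fell by this test. By the same test 12 of 15 xylem and secondary wall genes, 4 of 4 phloem genes and 5 of 5 green tissue genes fell. Their summed levels were 3576 to 4536 against 6245 to 7416 CPM for xylem, 200 to 216 against 373 to 414 CPM for phloem and 3959 to 5024 against 7148 to 7610 CPM for green tissue, mutant-labelled against wild type. Root markers summed to 7.84 to 7.90 CPM in the mutant-labelled libraries and 6.50 to 8.67 CPM in wild type, with *MYB36* and *EXP7* at 0 counts. Most of that sum was a single gene, *SCR*, with a mean of 7.12 CPM in the mutant-labelled libraries and 6.94 CPM in wild type.

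Of the 48 members, 39 had enough counts to be tested, and 21 of these fell and 1 rose in edgeR's quasi-likelihood test at an adjusted p of 0.05 over all 20296 tested genes. Over all tested genes, 24.9% were called, 13.7% as lower and 11.2% as higher. Among the FLA genes 10 of 15 tested fell and 1 rose, and among the other AGP genes 11 of 24 fell and 0 rose, with 0 also at an unadjusted p under 0.05 and 0 in DESeq2 and limma-voom. The median log2 fold change was -0.53 over the tested members and 0.02 over all tested genes. For 22 tested members the mutant-labelled values all lay below the wild-type values, and for 1 they all lay above. Over all tested genes the mutant-labelled values lay below without overlap in 22.0%, and the groups did not overlap, in either direction, in 45.3%. Leaving out mutant-labelled replicate 1, 2 or 3 gave 10, 13 or 28 members that fell, and leaving out wild type replicate 1, 2 or 3 gave 13, 10 or 20. In bulk tissue, fewer cells that express a gene and less RNA per cell cannot be told apart.

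**Figure D1:**
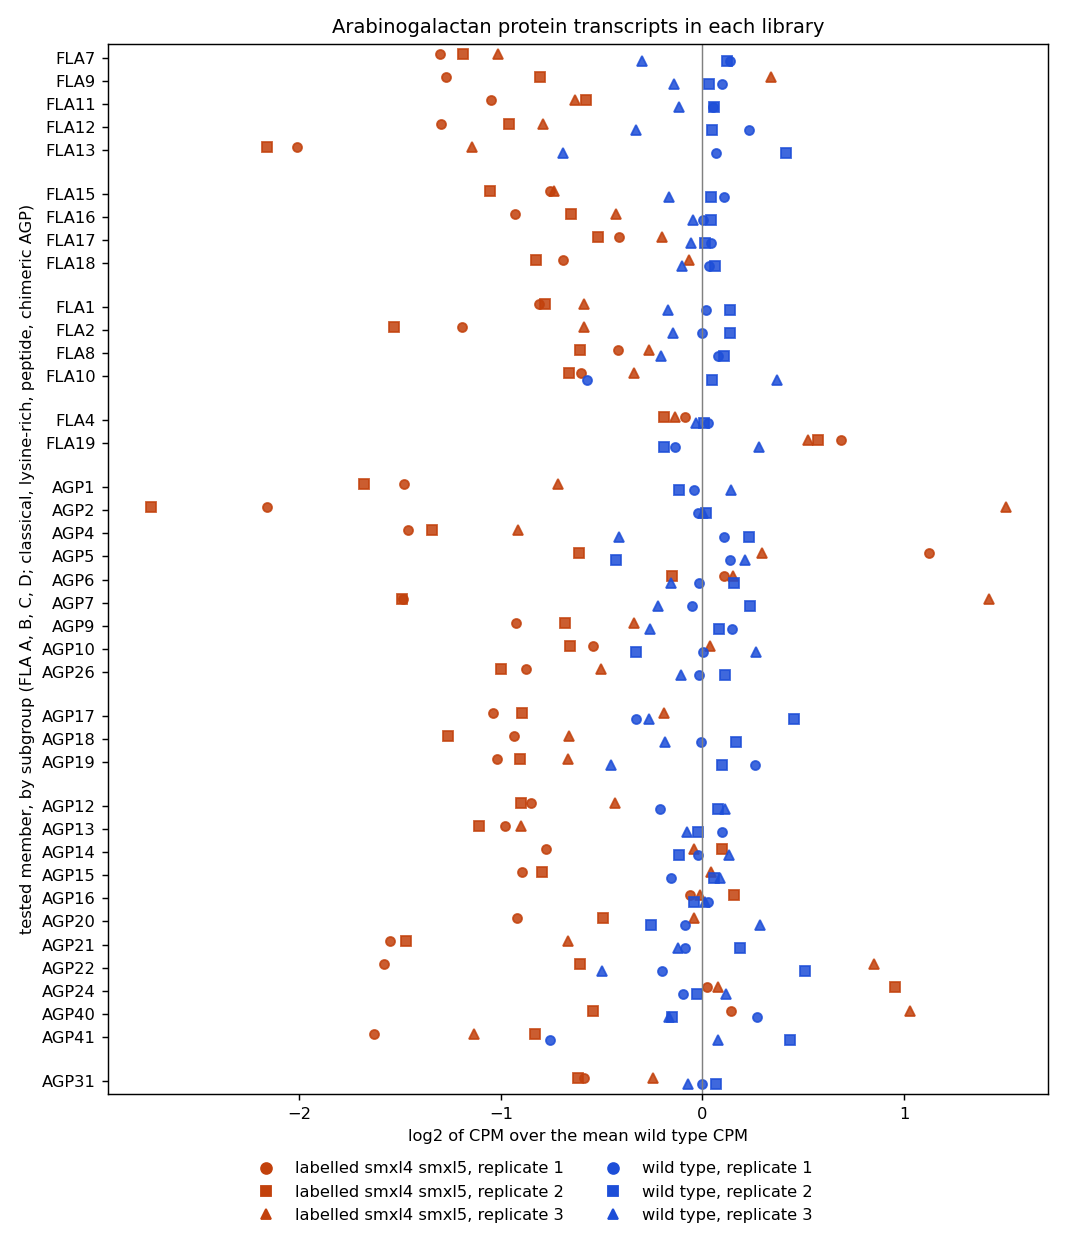
Level of each tested member in each library, as log2 of its CPM over the mean wild-type CPM (x axis), with members grouped by subgroup down the page; orange symbols are libraries labelled smxl4 smxl5, blue symbols wild type, and the symbol shape is the replicate number. For 22 of the 39 members all orange symbols lie left of all blue ones, and the orange triangle (replicate 3) is the rightmost orange symbol for 31.

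Transcripts of the family summed to 2705, 2899 and 3804 CPM in the mutant-labelled libraries and 5192, 5268 and 4669 CPM in wild type. The mutant-labelled mean was 62.2% of the wild-type mean. The FLA genes alone summed to 1332 ± 192 CPM in the mutant-labelled libraries and 2293 ± 231 CPM in wild type (SD, n = 3 each), and the other AGP genes to 1804 ± 400 and 2750 ± 107 CPM. A few genes held much of each sum. *FLA11* and *FLA12* together made up 47.3 ± 4.8% of FLA counts in the mutant-labelled libraries and 49.2 ± 1.2% in wild type (SD, n = 3 each), and *AGP31* made up 33.5 ± 2.4% and 30.2 ± 0.29% of the other AGP counts.

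Compared per length, as CPM per kb of exon, *FLA11* was the most abundant member in both groups, at 434 in the mutant-labelled libraries and 724 in wild type. In wild type it was followed by *AGP31* at 560, *AGP21* at 399, *AGP15* at 397, *FLA12* at 344 and *AGP9* at 288 CPM per kb. The mutant-labelled order differed, with *AGP31* at 404, *AGP15* at 284, *AGP9* at 186, *AGP21* at 177 and *FLA12* at 172 CPM per kb after *FLA11*. The falls were found mostly among the abundant genes. Of 27 tested members with a mean of at least 10 CPM over all libraries 20 fell, and of 12 below that 1 fell and 1 rose, while over all tested genes the share that fell was 13.8% above and 13.4% below the same level. Across the 39 tested members, Pearson's r between log2 CPM per kb and log2 fold change was -0.52 and Spearman's rho -0.49, as a description across genes that share the same 6 libraries. These figures use all 6 libraries. Without mutant-labelled replicate 3, *AGP2*, *AGP7* and *AGP17*, each with a mean below 10 CPM, also fell, and *AGP41* lost its call. Among members above that level *FLA9*, *FLA18*, *AGP10*, *AGP15* and *AGP20* also fell then.

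**Figure D2:**
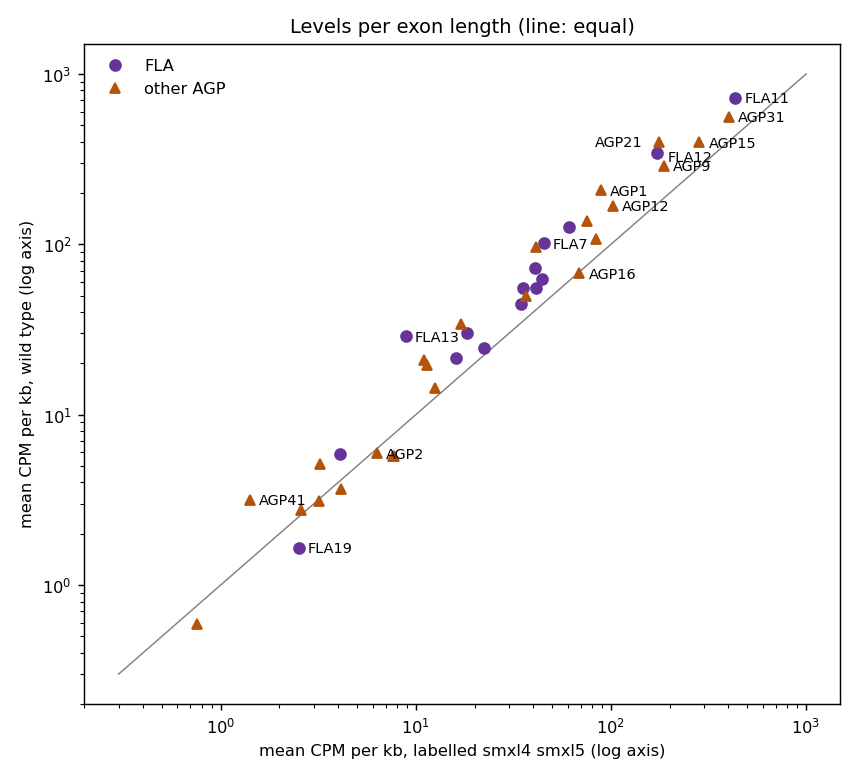
Mean level per kb of exon of each tested member in the libraries labelled smxl4 smxl5 (x axis, log) and in wild type (y axis, log); circles are FLA genes, triangles other AGP genes, and the line marks equal levels. FLA11 lies at the top, at 434 and 724 CPM per kb, and nearly all members above 20 CPM per kb lie above the line, AGP16 being on it.

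FLA group A holds the short FLAs with 1 fasciclin domain, the stem genes *FLA11* and *FLA12* among them. Of its 6 members, *FLA6* had no counts, 4 of the 5 tested fell, and the median log2 fold change was -1.0. *FLA11* (AT5G03170; TAIR10.1 chromosome 5, 752750 to 753657, minus strand, 1 exon) had 318, 441 and 424 CPM in the mutant-labelled libraries and 683, 684 and 607 CPM in wild type. *FLA12* (AT5G60490; chromosome 5, 24325457 to 24326827, minus strand, 1 exon) had 192, 242 and 272 CPM in the mutant-labelled libraries and 552, 486 and 375 CPM in wild type. In each gene every mutant-labelled library was below every wild-type one. The log2 fold changes were -0.74 ± 0.13 for *FLA11* and -1.0 ± 0.18 for *FLA12* (SE; edgeR adjusted p = 0.00926 and 0.00935), and both calls held in all 13 alternative settings. An end of *FLA11*, 56 bases, overlaps *P58IPK* on the opposite strand, which had a mean of 24.6 CPM in the mutant-labelled libraries and 24.7 CPM in wild type.

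*FLA7* (AT2G04780; chromosome 2, 1676717 to 1678455, plus strand) had 71.6, 77.4 and 87.4 CPM in the mutant-labelled libraries and 195, 192 and 143 CPM in wild type. The log2 fold change of *FLA7* was -1.16 ± 0.14 (edgeR adjusted p = 0.00289), and its call held in all 13 alternatives. *FLA13* (AT5G44130) fell furthest of all members, with 8.77, 7.90 and 16.0 CPM in the mutant-labelled libraries and 37.1, 47.1 and 21.9 CPM in wild type. These groups did not overlap but each had 1 library nearer to the other group, replicate 3 in both. The change of *FLA13* on the log2 scale was -1.68 ± 0.39 (edgeR adjusted p = 0.0312), and the call was lost without mutant-labelled replicate 1 or 2 or wild type replicate 1 or 2 (edgeR adjusted p up to 0.103). With all libraries kept, the call was also lost with no filter on low counts and with replicate number as a block (edgeR adjusted p = 0.0607 and 0.0705). *FLA9*, whose coding sequence is the nearest to *FLA13* in the group, at 76.9% identity, had 10.3, 14.3 and 31.5 CPM against 26.7, 25.5 and 22.6 CPM and did not pass (log2 -0.41 ± 0.41). Without mutant-labelled replicate 3, the highest of all its libraries, it fell by 1.03 (SE 0.15, edgeR adjusted p = 0.00483).

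Because 4 of the 6 group A genes fell, the 250 bases before each annotated gene start were read from the RefSeq genome (TAIR10.1) and searched on both strands for 2 elements known from genes of secondary wall formation. The SMRE, bound by secondary wall MYB factors, was searched as the letters ACC, then A or T, then A, then A or C, then C or T. The TERE, an element of genes of tracheary (water-conducting xylem) elements, was searched as CTT, any base, AAAGC, any base and A. An SMRE stood before 5 of the 6 group A genes, 16 of all 48 members and 29.4% of 27443 nuclear protein-coding genes. It stood before 7 of the 21 members that fell and 7 of the 17 that were tested and did not pass. The TERE stood before *FLA11* alone among the members and before 0.368% of all genes. A match is a description of letters and shows no binding. The windows of 3 group A genes that fell in all settings are shown 5′ to 3′ on the strand of the gene, ending at the base before its start, with the matches in capitals, at chr5:753658-753907 for *FLA11*, chr5:24326828-24327077 for *FLA12* and chr2:1676467-1676716 for *FLA7*.
FLA11: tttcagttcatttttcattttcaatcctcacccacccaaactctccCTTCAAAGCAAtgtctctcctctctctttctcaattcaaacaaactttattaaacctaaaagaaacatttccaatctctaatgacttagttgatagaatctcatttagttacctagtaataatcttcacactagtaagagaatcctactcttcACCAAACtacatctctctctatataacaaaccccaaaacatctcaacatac
FLA12: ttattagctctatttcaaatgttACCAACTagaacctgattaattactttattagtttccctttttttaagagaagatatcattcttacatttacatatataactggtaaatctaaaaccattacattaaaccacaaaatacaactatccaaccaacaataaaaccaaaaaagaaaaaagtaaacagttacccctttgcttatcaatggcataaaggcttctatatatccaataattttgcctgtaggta
FLA7: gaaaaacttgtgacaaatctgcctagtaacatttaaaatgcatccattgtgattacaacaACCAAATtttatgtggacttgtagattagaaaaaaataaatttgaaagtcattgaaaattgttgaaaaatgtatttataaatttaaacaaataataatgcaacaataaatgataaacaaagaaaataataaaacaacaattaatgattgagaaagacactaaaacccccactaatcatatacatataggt
The match before *FLA11* nearest to the start is the SMRE, 45 to 51 bases before it, and the capitals further away are the TERE. The *FLA11* window also runs into the neighbouring locus AT5G03180. In *FLA12* the SMRE lies 221 to 227 bases and in *FLA7* 184 to 190 bases before the start.

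In the secondary wall, *FLA11* and *FLA12* are known to be expressed with the cellulose synthase genes *CESA4*, *CESA7* and *CESA8*. All 3 fell too, with log2 fold changes of -0.77, -0.59 and -0.68 (edgeR adjusted p = 0.00714, 0.0179 and 0.0152). Summed per kb, *FLA11* and *FLA12* stood at 0.949, 1.02 and 1.18 times the 3 *CESA* genes in the mutant-labelled libraries and at 1.14, 1.13 and 1.20 times in wild type. The ratio overlapped between groups, since mutant-labelled replicate 3 reached the wild-type range. The ratio of *FLA11* to *FLA12*, per kb, was 2.51, 2.75 and 2.35 in the mutant-labelled libraries and 1.87, 2.12 and 2.45 in wild type, also with overlap. The primary wall genes *CESA1*, *CESA3* and *CESA6* had log2 fold changes of -0.42, -0.38 and -0.34 and did not pass (edgeR adjusted p = 0.0724, 0.0595 and 0.0904). Among the other xylem markers, the laccase gene *LAC17* had a log2 fold change of -1.30 ± 0.12 and *CTL2*, a chitinase-like gene of cellulose deposition, one of -0.92 ± 0.14. In the same list *NST1*, *VND6* and *VND7* had log2 fold changes of 0.09, -0.25 and -0.43 and did not pass (edgeR adjusted p = 0.555, 0.470 and 0.143). What part fewer xylem cells have in the falls of FLA genes was not tested.

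FLA group B holds longer FLAs, and all 4 of its members, *FLA15* to *FLA18*, were tested. Of these 3 fell, with a group median of -0.57. *FLA15* (AT3G52370) had 80.1, 65.0 and 81.2 CPM in the mutant-labelled libraries and 146, 139 and 120 CPM in wild type (log2 -0.84 ± 0.11, edgeR adjusted p = 0.00430). *FLA16*, known from stems and their secondary walls, had 51.0, 61.8 and 72.1 CPM in the mutant-labelled libraries and 97.2, 100 and 94.2 CPM in wild type (log2 -0.66 ± 0.12, edgeR adjusted p = 0.0101). The wild-type libraries of *FLA16* were close to each other while the mutant-labelled ones spread, and both calls held in all 13 alternatives. *FLA17* had 82.9, 77.2 and 96.0 CPM against 114, 111 and 106 CPM, a smaller fall (log2 -0.37 ± 0.09, edgeR adjusted p = 0.0268). The call of *FLA17* was lost without mutant-labelled replicate 1 or 2 or wild type replicate 1 or 2 (edgeR adjusted p up to 0.0941). *FLA18*, 80.1% identical to *FLA17* in coding sequence, had 83.8, 76.5 and 129 CPM against 139, 141 and 126 CPM and did not pass (log2 -0.49 ± 0.19). Here mutant-labelled replicate 3 lay inside the wild-type range, and without it the gene fell by 0.76 (SE 0.09, edgeR adjusted p = 0.00301).

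Group C holds FLAs with a GPI anchor signal and 1 or 2 fasciclin domains. Of its 7 members 4 were tested, 3 of these fell, and the median was -0.63. *FLA2* (AT4G12730) had 102, 81.0 and 156 CPM in the mutant-labelled libraries and 233, 257 and 211 CPM in wild type (log2 -1.05 ± 0.24, edgeR adjusted p = 0.0237). *FLA1*, known from root and shoot development in culture, had 30.1, 30.8 and 35.2 CPM against 53.5, 58.2 and 47.0 CPM (log2 -0.72 ± 0.10, edgeR adjusted p = 0.00469). In *FLA1* the mutant-labelled libraries were tight and its call held in all 13 alternatives. *FLA8* had 76.3, 66.9 and 84.8 CPM against 108, 110 and 88.4 CPM (log2 -0.42 ± 0.12, edgeR adjusted p = 0.0365). *FLA10*, 81.7% identical to *FLA8* in coding sequence, had 7.51, 7.21 and 9.04 CPM against 7.68, 11.8 and 14.8 CPM and did not pass (log2 -0.53 ± 0.23). The calls of *FLA2* and *FLA8* were lost without mutant-labelled replicate 1 or wild type replicate 1 or 2, and that of *FLA8* also without mutant-labelled replicate 2 (edgeR adjusted p up to 0.0859 and 0.131). *FLA10* passed without wild type replicate 1. The remaining 3 members, *FLA3*, *FLA5* and *FLA14*, were not tested.

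Group D gathers FLAs that resemble the others least, and 2 of its 4 members were tested. *FLA4*, also called *SOS5*, is needed for normal root growth in salt and for the wall of seed coat mucilage. It had 44.2, 41.1 and 42.8 CPM in the mutant-labelled libraries and 47.9, 47.2 and 45.9 CPM in wild type. The groups did not overlap, but the difference was small and did not pass (log2 -0.14 ± 0.06, edgeR adjusted p = 0.154). *FLA19* (AT1G15190, annotated as a fasciclin-like arabinogalactan family protein) was the only member that rose, at 3.26, 3.02 and 2.91 CPM against 1.85, 1.77 and 2.46 CPM (log2 0.59 ± 0.18, edgeR adjusted p = 0.0460). Its call was lost without any one of the 3 mutant-labelled libraries and without wild type replicate 1 or 2, where the edgeR adjusted p reached 0.162.

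**Figure D3:**
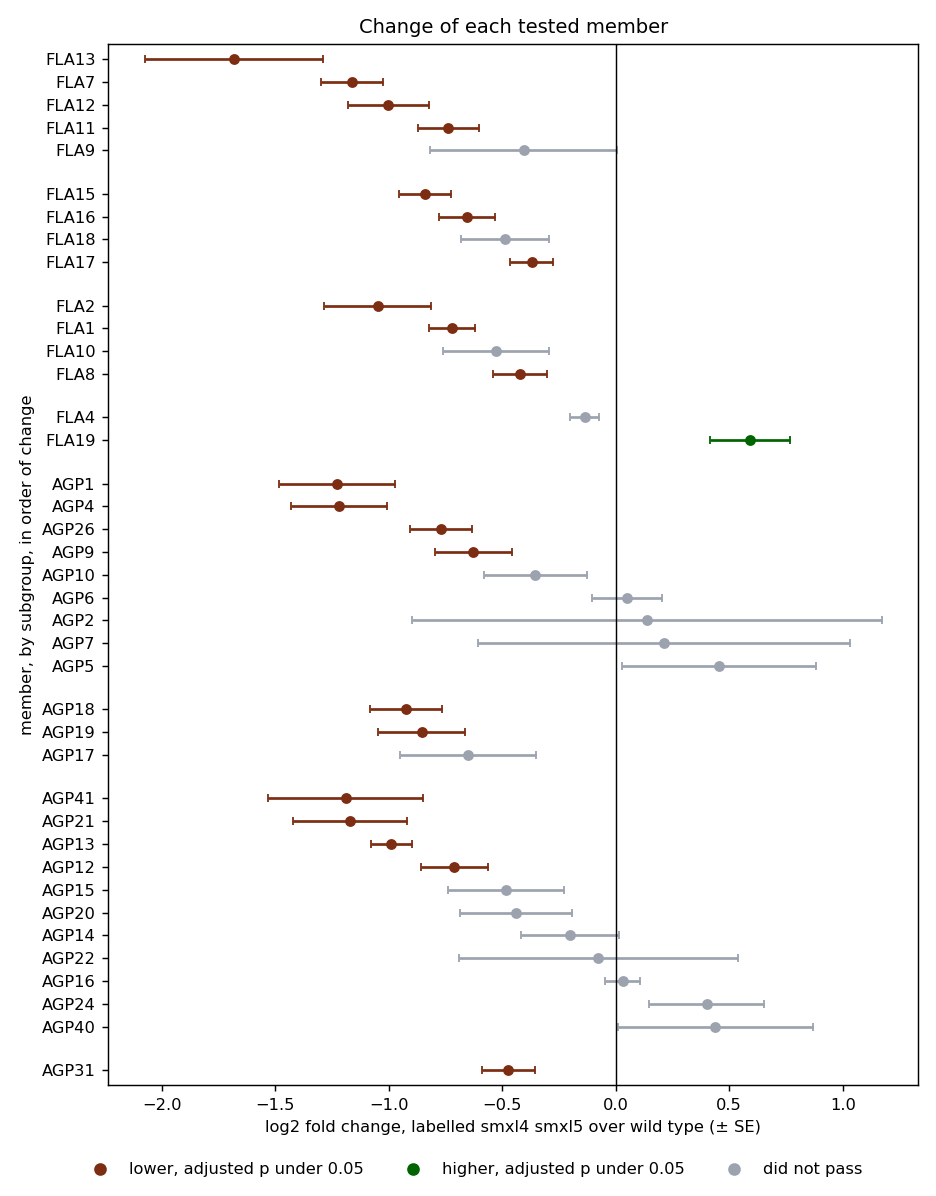
Log2 fold change, labelled smxl4 smxl5 over wild type, of each tested member with its SE (x axis), grouped by subgroup and ordered by change within it; dark red passed the test as lower, green as higher, grey did not pass. FLA groups A, B and C lie left of 0 throughout, FLA13 furthest at -1.68, and FLA19 at 0.59 is the only green point.

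Of the 11 classical AGP genes 9 were tested and 4 fell, with a median of -0.35. *AGP1* (AT5G64310) had 70.5, 61.4 and 120 CPM in the mutant-labelled libraries and 191, 182 and 217 CPM in wild type (log2 -1.23 ± 0.26, edgeR adjusted p = 0.0194). *AGP4*, also known as *JAGGER*, had 34.0, 36.9 and 49.6 CPM against 101, 110 and 70.1 CPM (log2 -1.22 ± 0.21, edgeR adjusted p = 0.0108). In both genes mutant-labelled replicate 3 was the highest of its group and still below wild type. *AGP9* (AT2G14890), the most abundant classical AGP, had 265, 313 and 398 CPM against 557, 532 and 420 CPM (log2 -0.63 ± 0.17, edgeR adjusted p = 0.0342). *AGP26* had 7.54, 6.93 and 9.79 CPM against 13.7, 15.0 and 12.9 CPM (log2 -0.77 ± 0.14, edgeR adjusted p = 0.00911). The calls of *AGP4* and *AGP26* held in all 13 alternatives. Those of *AGP1* and *AGP9* were lost without mutant-labelled replicate 1 or wild type replicate 1 or 2, and that of *AGP9* also without mutant-labelled replicate 2 (edgeR adjusted p up to 0.0666 and 0.114).

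Among the classical genes that did not pass, *AGP10* had 61.4, 56.7 and 91.9 CPM against 89.8, 71.2 and 108 CPM, with overlap. *AGP5* had 9.46, 2.84 and 5.32 CPM against 4.76, 3.22 and 5.03 CPM, also with overlap. *AGP6*, known from pollen, had 3.44, 2.88 and 3.55 CPM against 3.16, 3.57 and 2.87 CPM (log2 0.05 ± 0.15). Its partner in pollen, *AGP11*, was nearly absent, with 7 counts in all mutant-labelled libraries together and 19 in wild type. Of 8 pollen and flower markers 2 were tested, and their list summed to 1.33 to 2.84 CPM in the mutant-labelled libraries and 0.424 to 0.864 CPM in wild type. Of these *PI*, which specifies petals and stamens, rose (log2 3.14 ± 0.65, edgeR adjusted p = 0.0156), and *AP3*, its partner, was at 0 counts. The levels of *PI* were low, at 2.01, 1.44 and 0.693 CPM in the mutant-labelled libraries and 0.328, 0.133 and 0.0404 CPM in wild type. *BCP1*, the other tested marker of this list, did not pass (log2 0.70 ± 0.59, edgeR adjusted p = 0.413). Their part in the levels of pollen AGP genes was not tested.

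The lysine-rich AGPs are *AGP17*, known for a role in the binding of *Agrobacterium* to roots, *AGP18*, known from female gametophyte development, and *AGP19*, known from plant growth. *AGP18* had 14.7, 11.7 and 17.8 CPM in the mutant-labelled libraries and 28.0, 31.6 and 24.7 CPM in wild type (log2 -0.92 ± 0.16, edgeR adjusted p = 0.00850). *AGP19* (AT1G68725) had 50.4, 54.6 and 64.2 CPM against 122, 109 and 74.5 CPM (log2 -0.86 ± 0.19, edgeR adjusted p = 0.0218). Both groups of libraries stood apart in these genes, and *AGP17* overlapped, at 3.11, 3.44 and 5.60 CPM against 5.09, 8.76 and 5.33 CPM (log2 -0.65 ± 0.30, edgeR adjusted p = 0.150). The call of *AGP18* held in all 13 alternatives. That of *AGP19* was lost without mutant-labelled replicate 1 or 2 or wild type replicate 1 or 2 (edgeR adjusted p up to 0.0791). The chimeric *AGP31*, a vascular AGP with a cysteine-rich domain, had 553, 541 and 702 CPM against 829, 871 and 791 CPM (log2 -0.47 ± 0.12, edgeR adjusted p = 0.0258). Its groups did not overlap, but the call was lost without the same 4 libraries as that of *AGP19* (edgeR adjusted p up to 0.0978). The other chimeric gene, *AGP30*, known from roots, had 2 counts in all mutant-labelled libraries together and 3 in wild type.

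All 11 AG peptide genes were tested and 4 fell, with a median of -0.44. *AGP21* (AT1G55330), known from root hair formation, had 58.2, 61.5 and 107 CPM in the mutant-labelled libraries and 160, 194 and 157 CPM in wild type (log2 -1.17 ± 0.25, edgeR adjusted p = 0.0217). *AGP12* (AT3G13520) had 75.6, 72.9 and 101 CPM against 118, 144 and 147 CPM (log2 -0.71 ± 0.15, edgeR adjusted p = 0.0142). *AGP13* (AT4G26320) had 10.2, 9.30 and 10.8 CPM against 21.4, 19.7 and 19.0 CPM (log2 -0.99 ± 0.09, edgeR adjusted p = 0.00167). Of these *AGP13* had the least spread in both groups and the lowest p of any member, and its call held in all 13 alternatives. *AGP41* had 0.748, 1.30 and 1.05 CPM against 1.37, 3.13 and 2.44 CPM (log2 -1.19 ± 0.34, edgeR adjusted p = 0.0402). The call of *AGP21* was lost without mutant-labelled replicate 1 or 2 or wild type replicate 1 or 2 (edgeR adjusted p up to 0.0777), and that of *AGP12* without mutant-labelled replicate 1 or wild type replicate 2 (up to 0.0569). That of *AGP41* was lost without any one library other than wild type replicate 1 (edgeR adjusted p up to 0.141), and with all libraries in limma-voom.

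Abundant AG peptide genes that did not pass were *AGP15*, *AGP16* and *AGP20*. *AGP15*, the most abundant peptide gene by CPM per kb averaged over all libraries, had 221, 237 and 423 CPM in the mutant-labelled libraries and 369, 428 and 436 CPM in wild type (log2 -0.48 ± 0.26). *AGP20* had 22.6, 30.4 and 41.5 CPM against 40.3, 35.8 and 52.2 CPM (log2 -0.44 ± 0.25). In both, mutant-labelled replicate 3 alone reached the wild-type range. *AGP16*, 84.4% identical to *AGP20* in coding sequence, had 71.1, 82.9 and 73.8 CPM against 75.7, 72.2 and 75.1 CPM (log2 0.03 ± 0.08). It was the abundant AGP gene with the smallest difference, and whether it differs in response from *AGP20* was not tested. *AGP14*, *AGP22*, *AGP24* and *AGP40* stayed below 8 CPM in all libraries, with log2 fold changes from -0.20 to 0.44, and did not pass.

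The coding sequences of 4 closely related AG peptide genes are shown because 3 of them, *AGP21*, *AGP12* and *AGP13*, fell while *AGP14* did not pass. They come from the RefSeq annotation of TAIR10.1, start codon to stop codon, signal sequences included, with all in-frame proline codons (CCN) in capitals. Which of these prolines are hydroxylated or glycosylated was not examined.
AGP21: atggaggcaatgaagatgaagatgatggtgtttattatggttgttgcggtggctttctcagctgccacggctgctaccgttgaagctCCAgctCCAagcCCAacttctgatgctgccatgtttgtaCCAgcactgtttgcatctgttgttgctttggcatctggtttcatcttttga
AGP12: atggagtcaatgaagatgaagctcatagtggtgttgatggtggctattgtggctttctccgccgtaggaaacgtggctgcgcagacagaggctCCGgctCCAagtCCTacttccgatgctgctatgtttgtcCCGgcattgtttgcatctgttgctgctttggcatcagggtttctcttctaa
AGP13: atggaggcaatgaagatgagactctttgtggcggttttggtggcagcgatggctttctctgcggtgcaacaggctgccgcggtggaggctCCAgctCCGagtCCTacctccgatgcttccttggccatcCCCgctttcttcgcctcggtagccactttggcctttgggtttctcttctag
AGP14: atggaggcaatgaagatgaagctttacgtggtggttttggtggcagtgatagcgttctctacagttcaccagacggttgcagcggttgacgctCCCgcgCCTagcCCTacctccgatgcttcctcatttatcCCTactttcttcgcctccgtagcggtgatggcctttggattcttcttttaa
*AGP21* lies at chromosome 1, 20648465 to 20648891, *AGP12* at chromosome 3, 4408925 to 4409734, *AGP13* at chromosome 4, 13317053 to 13317640, and *AGP14*, known from root hairs, at chromosome 5, 22893151 to 22893651. Each holds 4 proline codons, 3 of them close together and alternating with codons of other residues. Identity in coding sequence was 77.0% between *AGP13* and *AGP14* and 74.3% between *AGP12* and *AGP21*. *AGP14* had 4.19, 7.67 and 6.96 CPM in the mutant-labelled libraries and 7.06, 6.61 and 7.85 CPM in wild type. Beside the -0.99 ± 0.09 of *AGP13*, the log2 fold change of *AGP14* was -0.20 ± 0.21, and that difference between the genes was not tested. The share of proline codons had a median of 21.8% in the classical AGPs, 6.67% in the AG peptides, signal sequences included, 7.09% in FLA group A and 4.55% over 27414 nuclear protein-coding genes.

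Mutant-labelled replicate 3 stood apart from replicates 1 and 2 in this family. It was the highest mutant-labelled library for 31 of the 39 tested members (79.5%) and for 34.6% of all tested genes. It exceeded the mean of the other two by more than 1.5 times for 14 members, *FLA2*, *FLA9*, *FLA13*, *FLA18*, *AGP1*, *AGP2*, *AGP7*, *AGP10*, *AGP15*, *AGP17*, *AGP20*, *AGP21*, *AGP22* and *AGP40*, and for 6.95% of all tested genes. *AGP2* showed this most, at 1.11, 0.744 and 14.1 CPM in the mutant-labelled libraries and 4.88, 5.01 and 4.97 CPM in wild type. *AGP7* had 1.26, 1.26 and 9.45 CPM against 3.39, 4.15 and 3.03 CPM. In each of these genes replicates 1 and 2 lay below every wild-type library and replicate 3 above every one. *AGP22* behaved alike in direction, with 0.689, 1.35 and 3.71 CPM against 1.79, 2.93 and 1.45 CPM.

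With all libraries *AGP2* and *AGP7* had log2 fold changes of 0.14 ± 1.03 and 0.21 ± 0.82 (edgeR adjusted p = 0.936 and 0.869). As mutant-labelled replicate 3 was the highest of its group for most members, fits without it are a description and no separate evidence. Without mutant-labelled replicate 3 the sign of *AGP2* and *AGP7* turned, to -2.38 ± 0.20 and -1.48 ± 0.22, and both passed as lower (edgeR adjusted p = 0.00113 and 0.00461). Their sign was negative also in limma-voom (-0.89 and -0.35), without passing. Without mutant-labelled replicate 3, in edgeR, 28 of 39 members fell, where 15.3% of all tested genes fell. The 28 included 20 of the 21 that fell with all libraries and 8 more, *FLA9*, *FLA18*, *AGP2*, *AGP7*, *AGP10*, *AGP15*, *AGP17* and *AGP20*. The median over the members was then -0.84. All 6 epidermis markers were highest in replicate 3 among the mutant-labelled libraries, as were the primary wall genes *CESA1*, *CESA3* and *CESA6*. Replicate 3 stood at 1.22, 1.14 and 1.22 times the mean of replicates 1 and 2 in these *CESA* genes. It was the highest mutant-labelled library for only 1 of 15 xylem and secondary wall, 1 of 4 phloem and 1 of 5 green tissue markers. The epidermis markers ranged from 1.09 times in *CER6*, 1.15 in *FDH* and 1.44 in *PDF2* to 1.89 in *ATML1*, 2.88 in *LTP1* and 15.7 in *PDF1*. Their sum was 331, 322 and 437 CPM in the mutant-labelled libraries and 425, 485 and 364 CPM in wild type. None was at 0 and, with all libraries, none passed the test. *PDF1*, expressed in shoot epidermis, had 0.419, 1.67 and 16.4 CPM against 7.33, 8.98 and 11.7 CPM. Their part in the levels of AGP genes was not tested.

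**Figure D4:**
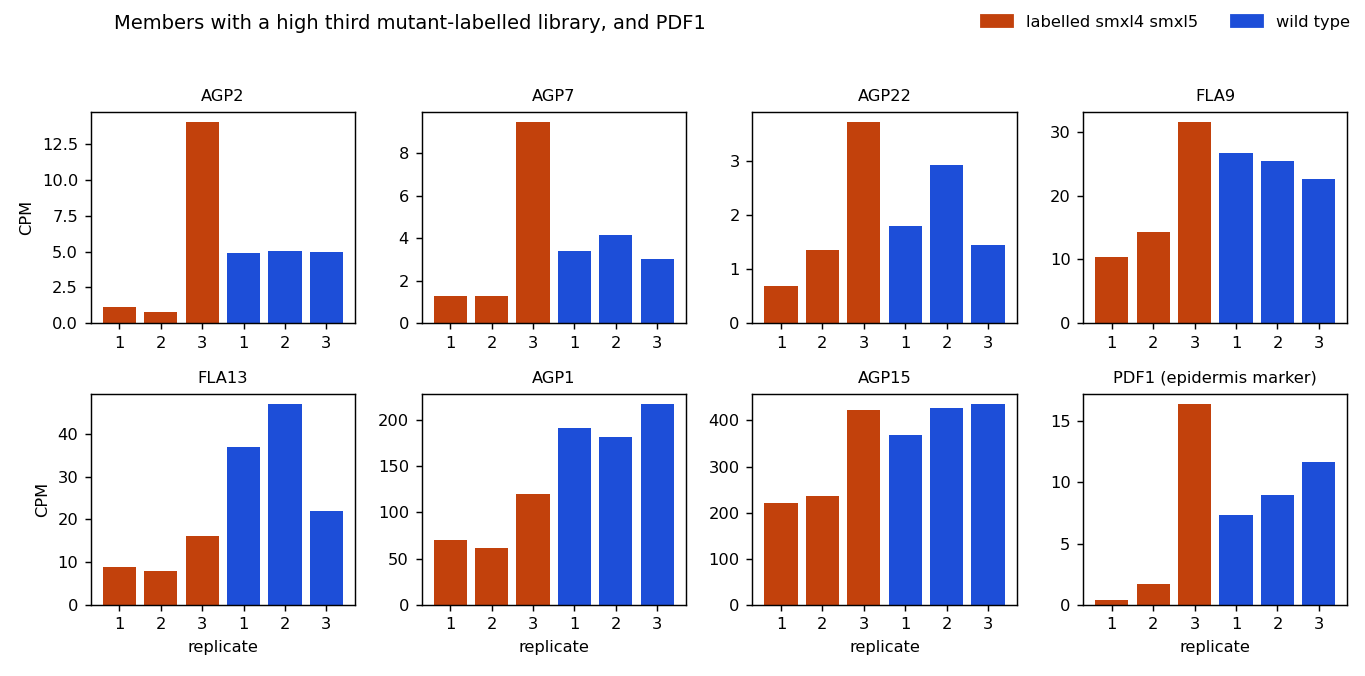
CPM (y axis, from 0) in each library (x axis, replicate number) of 7 members and the epidermis marker PDF1; orange bars are libraries labelled smxl4 smxl5, blue bars wild type. In AGP2 and AGP7 the third orange bar, at 14.1 and 9.45 CPM, is above all blue bars while the first and second are below them, and in PDF1, at 0.419, 1.67 and 16.4 CPM, the third orange bar is also the highest bar of all.

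The 9 members that were not tested had few counts or none. *FLA6* and *FLA14* had 0 counts in all libraries, which at 3 counts allows up to 0.139 CPM in the smallest library and 0.0605 CPM in the largest, for counting error only. The mutant-labelled libraries together had 7 counts of *FLA3*, 2 of *FLA5*, 0 of *FLA20*, 0 of *FLA21* and 1 of *AGP3*, and the wild-type libraries 14, 3, 1, 3 and 1. *FLA3* and *FLA14* are known from pollen. *FLA14* lies wholly inside a locus on the opposite strand, *emb2742*, which reached 69.0 CPM, and 96.5% of *FLA3* is overlapped by AT2G24440 on the opposite strand. The strand setting of the read counter is not known, so reads of such overlaps cannot be assigned to either gene with certainty. In all, 10 members overlap an opposite-strand locus, and 5 of those loci are in the count table. Among members that fell, such overlaps cover 85.2% of *AGP21*, 61.7% of *AGP19*, 61.1% of *AGP26*, 60.1% of *AGP4* and 56.7% of *FLA16*. The locus opposite *FLA16* reached 0.242 CPM, and those opposite the other named AGP genes are not in the count table. All alternative settings used the same counts, so calls that held in them do not settle the strand of these reads. Of the 48, 0 had a copy elsewhere in the annotation at 95% identity over 100 bases.

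Genes that modify AGPs or act with them were followed by a list of 39 loci, of which 23 carry their listed symbol in the annotation. Of 34 tested, 7 fell and 4 rose, where 13.7% of all tested genes fell and 11.2% rose, and the median log2 fold change was -0.07. Of 7 tested prolyl hydroxylase loci 2 rose, *P4H5* with 61.8, 49.5 and 57.3 CPM in the mutant-labelled libraries and 40.2, 38.3 and 42.6 CPM in wild type (log2 0.48 ± 0.10, edgeR adjusted p = 0.0126), and AT1G20270, annotated as an oxygenase, by 0.42 (SE 0.11). Of 8 loci annotated as galactosyltransferases that were listed for the first sugar, 1 fell, AT1G27120, by 0.43 (SE 0.10, edgeR adjusted p = 0.0233). Of 10 tested genes of glycan extension and sugar supply 4 fell. *GLCAT14B*, a glucuronosyltransferase gene, had 19.0, 17.9 and 21.4 CPM against 30.5, 31.8 and 28.1 CPM (log2 -0.63 ± 0.09, edgeR adjusted p = 0.00487). The others, named after their values were seen, were *GLCAT14C* at -0.62 ± 0.09, the galactosyltransferase gene *GALT29A* at -0.54 ± 0.08 and *UGE4*, a UDP-galactose epimerase gene, at -0.34 ± 0.10.

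Of 5 genes of GPI anchor synthesis 2 rose, *APTG1* with a log2 fold change of 0.32 ± 0.09 and *SETH2* with 0.31 ± 0.07 (edgeR adjusted p = 0.0374 and 0.0166). Of the receptor kinase genes *FEI1* and *FEI2*, known to act in one pathway with *FLA4*, *FEI2* had 63.0, 55.3 and 66.7 CPM in the mutant-labelled libraries and 86.6, 85.9 and 73.1 CPM in wild type and fell (log2 -0.41 ± 0.10, edgeR adjusted p = 0.0249). *FEI1* had 127, 119 and 137 CPM against 145, 145 and 134 CPM and did not pass (log2 -0.15 ± 0.08). Among 3 AGP genes outside the member list, *AGP25* fell, at 26.6, 28.8 and 29.1 CPM against 35.9, 37.0 and 38.4 CPM (log2 -0.40 ± 0.07, edgeR adjusted p = 0.00798). *AGP27* did not pass (log2 -0.05 ± 0.11), and *AGP23*, known from pollen, had at most 0.139 CPM in any library. Leaving out mutant-labelled replicate 1 gave 4 loci of the list that fell and 1 that rose. Leaving out wild type replicate 1 gave 4 and 2, and leaving out wild type replicate 2 gave 4 and 0.

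**Figure D5:**
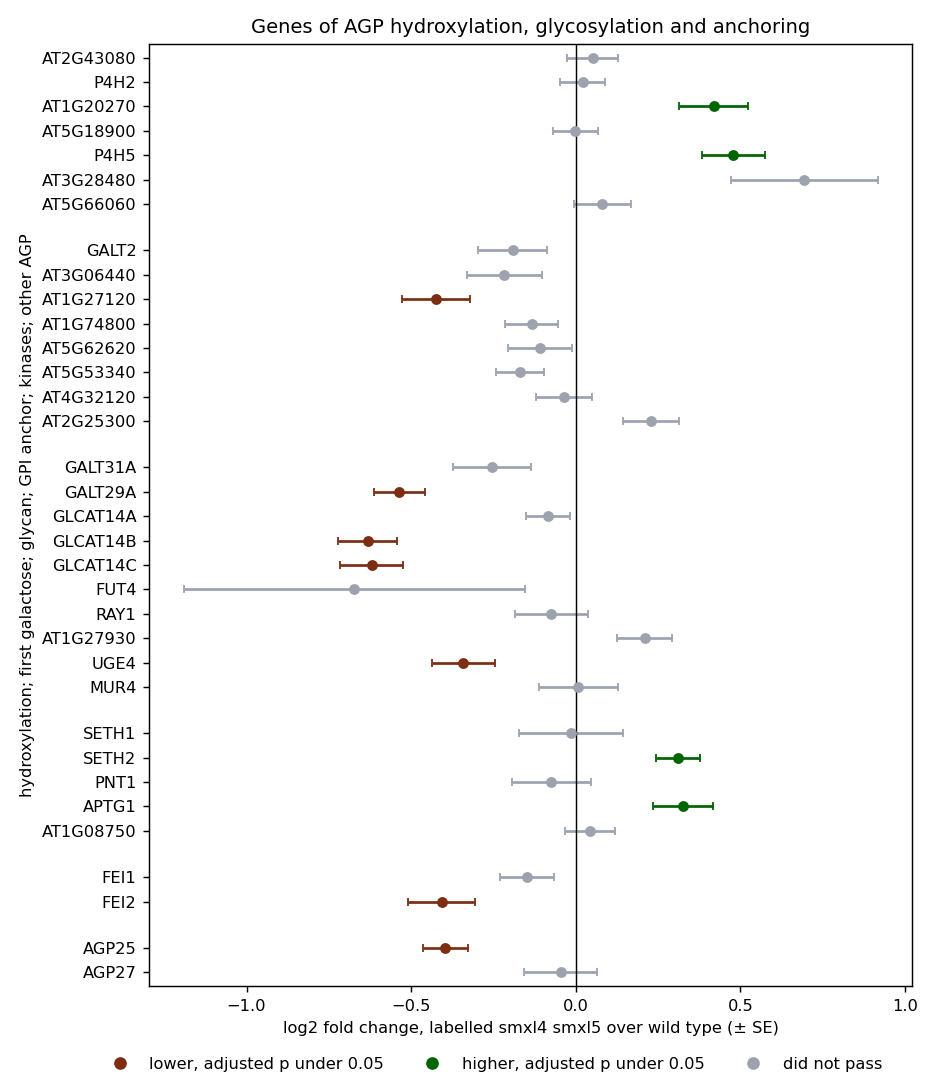
Log2 fold change, labelled smxl4 smxl5 over wild type, with SE (x axis) of the 34 tested loci of AGP hydroxylation, glycosylation, anchoring and linked kinases and 2 further AGP genes, by role down the page; dark red passed as lower, green as higher, grey did not pass. GLCAT14B at -0.63 and GLCAT14C at -0.62 are the furthest dark red points, and the green points are P4H5, AT1G20270, SETH2 and APTG1.

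Of 38 members with an adjusted p in the authors' deposited table, 22 passed at 0.05, all lower in the mutant-labelled libraries. Among all genes with an adjusted p there, 25.7% passed, 14.2% as lower, by the authors' deposited table. It was made from the same libraries, so it is a second test and not a second measurement. Of those 22, 21 were also called here, and the table differed in *FLA18*, which it called (adjusted p = 0.0338 in the authors' deposited table), and *FLA19*, which it did not (0.0625 in the same table).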

How the data were processed

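RNA sequencing of 6 stem base samples was analysed. For each gene the authors deposited raw counts and a comparison table whose columns, per the file headers, are a signal (normalized counts averaged over samples), a log2 fold change, the SE of that change, a test score, a p-value and an adjusted p-value. That fold change runs as wild type over mutant-labelled, which held for all 1311 genes with an absolute edgeR log2 fold change of at least 1. From the deposited SE, score, signal and unadjusted p-value columns no value is reported. The submitters' processing notes name TAIR10 as the build and, as tools, TopHat2 2.0.14, FastQC 0.11.7 and DESeq2. For the read counter and its strand setting the sources used here give nothing. RNA was poly(A)-selected and the kit directional, with 12 PCR cycles, per the labels' protocols.

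Groups follow the labelled genotype of the stem, and replicate numbers follow the titles. The descriptions call every wild-type sample replicate 1, while the protocol states separate biological replicates. Chi-square per gene between libraries of one genotype was 12.3 to 37.0, so no library repeats another. Same-numbered libraries did not deviate together (correlations -0.03 to 0.07).

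Counts were tested with edgeR 4.0.16 in R 4.3.3: genes were kept by filterByExpr (at least 10 counts, 15 in total), scaled by TMM, and genotype was tested by robust quasi-likelihood, two-sided, with a prior count of 0.125 and Benjamini-Hochberg adjustment over all tested genes at 0.05. Dividing the absolute log2 fold change by the root of the F statistic gave its SE. CPM use TMM-scaled library sizes. The code was tested on simulated data. Alternatives were RLE and upper-quartile factors, no filter, a stricter filter (1 CPM in 3 samples), DESeq2 1.42.0, limma-voom 3.58.1, a replicate block and each library left out. Gene models and sequences are RefSeq's for TAIR10.1, where 47 of 48 members carry their symbol, and copies were sought with BLAST 2.17.0.

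Members and lists were chosen with earlier results of these data known. Values in every sample are given for called members with a mean of at least 10 CPM or an absolute log2 fold change of at least 1, and for the most abundant member of each subgroup. Other members, and markers named beside them, were named after their values were seen.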

Additional observations from a re-analysis of the deposited data

How the results depend on the processing

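Of the 22 called members, 10 were called in all 13 alternatives (*FLA1*, *FLA7*, *FLA11*, *FLA12*, *FLA15*, *FLA16*, *AGP4*, *AGP13*, *AGP18* and *AGP26*), and the other 12 lost the call in at least 1. With a library left out, the genes called over all genes numbered 1902 to 5558 and the members that fell 10 to 28, of which FLA genes made up 6 to 12 and other AGP genes 4 to 16. The members that rose then numbered 0 to 1, the modifying genes that fell 4 to 7 and that rose 0 to 4, and the members' median log2 fold change ran from -0.84 to -0.48. Fewer libraries lower the power of the test. With a library left out the log2 fold changes of *AGP2* and *AGP7* ran from -2.38 to 0.63 and from -1.48 to 0.65, negative only without mutant-labelled replicate 3, and the cause was not tested. Both were also negative, without passing, in limma-voom and the replicate block. In the replicate block, where numbers do not pair the samples and 1 of 3 mutant-labelled libraries correlated best with its own number, 3356 genes were called, 15 members fell (6 FLA and 9 other AGP genes), 0 members rose and 5 modifying genes fell. There *FLA2*, *FLA8*, *FLA13*, *FLA17*, *FLA19*, *AGP9*, *AGP19* and *AGP31* lost their calls, and *AGP10* gained one. *FLA19*, the only member that rose, also lost its call with no filter and in DESeq2, leaving 0 FLA genes that rose. The filter, the scaling factors, DESeq2 and limma-voom left 20 to 22 members lower and 4776 to 5360 genes called.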
